A study of Mus musculus with 14 samples.

Results

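Hmga1, Hmga2, Igf2bp1, Igf2bp2, Igf2bp3 and Lin28b are genes of fetal growth that are widely used as examples of let-7 microRNA targets, and they were followed here as a fixed list of 6 among the 29713 genes of the deposited tables. The RNA came from cultured neural stem cells (NSC) of mice of the OG2 strain, which carry a green fluorescent reporter of Pou5f1. Of 14 libraries, 12 were made at passage 8 and cover 4 stages, which are undifferentiated NSC and NSC at day 2, day 4 and day 8 of differentiation. At each stage 1 library was treated with naloxone (an opioid receptor antagonist), 1 with DAMGO (a peptide agonist of the mu opioid receptor) and 1 was the control that the labels call NC. The remaining 2 libraries are references, NSC of passage 8 and NSC of passage 13, for which the labels name no treatment. No condition has a second library, so a stage mean is over 3 libraries that differ in treatment, the labels do not say whether libraries came from separate cultures, and the p-values measure only the spread between these libraries.

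Of the 6 genes, 4 passed the filter on low counts and were tested, Hmga2 through its undifferentiated libraries. Hmga1, Hmga2, Igf2bp2 and Igf2bp3 were all present in undifferentiated NSC and all were lower at day 8, but each had its own course. Hmga2 was already about 18-fold lower at day 2, Igf2bp3 was as high at day 2 as before and fell only afterwards, and Igf2bp2 fell at every step. Hmga1 was 1.91-fold lower at day 2 and 2.97-fold lower at day 8 in the main fit, sizes that changed with the setting. Igf2bp1 and Lin28b, in contrast, were not detectable above the counting floor in any library. None of the 4 tested genes passed the test for either opioid drug or for the higher passage.

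As background, HMGA1 and HMGA2 are small chromatin proteins that bind AT-rich DNA in the minor groove and are abundant in embryonic and dividing cells. IGF2BP1, IGF2BP2 and IGF2BP3 bind RNA, among it the Igf2 transcript, and affect its stability, transport and translation. LIN28B and its relative LIN28A bind precursors of let-7 and block their maturation, while mature let-7 binds the 3′ UTRs of the Hmga2, Igf2bp and Lin28 mRNAs and lowers their output, so that the pathway forms a loop. In the mouse brain Hmga2, Igf2bp and Lin28 genes are known as marks of fetal neural stem cells whose levels decline with age.

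In the mm10 build, Hmga1 (ENSMUSG00000046711) lies at chr17:27556497-27563674 on the plus strand. Hmga2 (ENSMUSG00000056758) lies at chr10:120361275-120476469 and Lin28b (ENSMUSG00000063804) at chr10:45376620-45486395, both on the minus strand. Igf2bp1 (ENSMUSG00000013415) lies at chr11:95957163-96005940, Igf2bp2 (ENSMUSG00000033581) at chr16:22059009-22163299 and Igf2bp3 (ENSMUSG00000029814) at chr6:49085223-49214957, all on the minus strand.

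The let-7 family is shown because its seed is what the 6 genes share in their annotated 3′ UTRs. Among 11 mature names of the let-7 family and miR-98 in RefSeq (GRCm38.p6), 10 share the seed GAGGUAG at bases 2 to 8 and are encoded by 12 genes, and let-7j has GAGGUAU. Below are 4 members with the seed in capitals, from 5′ to 3′.
let-7a: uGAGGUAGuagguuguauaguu
let-7b: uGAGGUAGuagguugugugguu
let-7i: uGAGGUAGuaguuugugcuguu
miR-98: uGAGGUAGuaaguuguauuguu

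The complement of the shared seed is CTACCTC, searched here on the transcript strand only, in the longest annotated 3′ UTR of each gene. A copy followed by A (CTACCTCA) is counted as an 8-base match and is among the 7-base matches. The sites below are the match nearest to the stop codon in each of the 6 genes and the 3 further ones of Hmga2, the gene with the largest fall. They are 3′ UTR sequence on the strand of the gene, with the match in capitals.
Hmga2 site 1 (chr10:120364224-120364245): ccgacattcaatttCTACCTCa
Hmga2 site 2 (chr10:120362987-120363008): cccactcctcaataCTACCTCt
Hmga2 site 3 (chr10:120362549-120362570): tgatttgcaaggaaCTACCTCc
Hmga2 site 4 (chr10:120361691-120361712): atcaaaacacactaCTACCTCt
Lin28b site 1 (chr10:45381022-45381043): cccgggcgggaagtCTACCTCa
Igf2bp1 site 1 (chr11:95961778-95961799): ctgtgcgaagtaaaCTACCTCa
Igf2bp2 site 1 (chr16:22059473-22059494): cacacaaataaaagCTACCTCa
Igf2bp3 site 1 (chr6:49086787-49086808): gcatttttactcaaCTACCTCa
Hmga1 site 1 (chr17:27563278-27563299): cctctgttcacaaaCTACCTCt

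Hmga2 held 4 matches of 7 bases in a 3′ UTR of 3014 bases, 1 of them of 8 bases. Lin28b held 4 in 4445 bases, 1 of 8 bases, and Igf2bp1 held 4 in 6337 bases, 3 of 8 bases. Igf2bp2 (1784 bases), Igf2bp3 (2119 bases) and Hmga1 (1183 bases) held 1 each, which was of 8 bases in the Igf2bp genes and of 7 in Hmga1. Each gene was set among 3′ UTRs of similar length (up to 20% shorter or 25% longer), its own included. At least as many matches as in Hmga2 were held by 0.123% of 2438 such 3′ UTRs. For Lin28b this share was 0.295% of 1357, and for Igf2bp1 it was 0.331% of 604. The share with at least 1 match was 8.24% at the length of Hmga1, 12.1% at that of Igf2bp2 and 13.3% at that of Igf2bp3, and it was 9.03% of all 20998 annotated 3′ UTRs. These genes were listed as let-7 targets, so the matches describe the list, and mature microRNAs were not measured in these libraries.

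**Figure D1:**
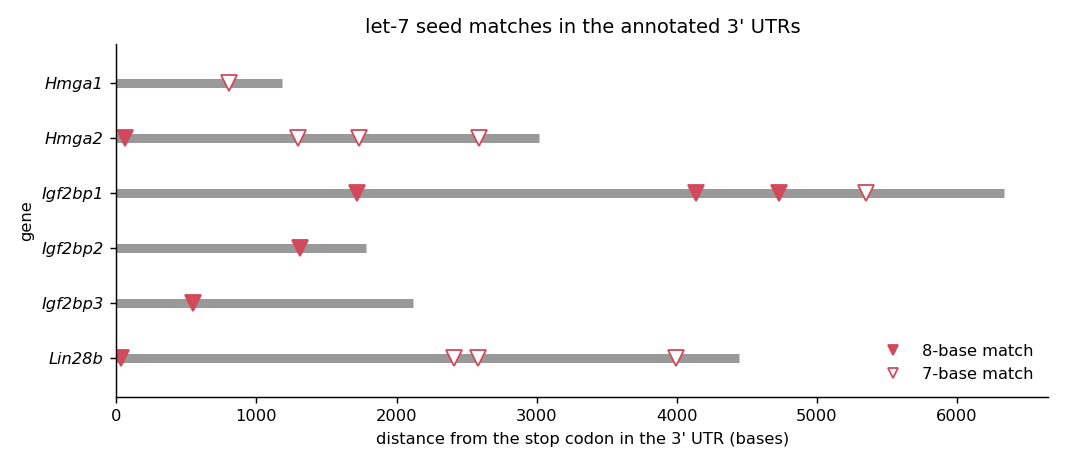
Position of let-7 seed matches along the longest annotated 3′ UTR of the 6 genes, as distance from the stop codon in bases; grey bars are the 3′ UTRs, filled triangles 8-base and open triangles 7-base matches. Hmga2, Igf2bp1 and Lin28b hold 4 matches each, and the other genes hold 1.

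Library totals ran from 4143030 to 9070533 estimated counts, and 3 counts of a library amount to 0.354 to 0.693 CPM (the count scaled to the TMM-corrected total of its library); intervals below cover counting error only. The day 2 NC library stood apart from its stage: over 11189 genes the log2 ratios to the day 2 naloxone and DAMGO libraries had SDs of 0.607 and 0.510, against 0.260 between those libraries. Taken over the NC library, the log2 ratios of the naloxone and DAMGO libraries correlated with GC content across genes, with r of 0.607 and 0.580. The day 2 NC library was thus relatively lower in GC-rich genes. The day 8 naloxone library also stood apart, with an SD of 0.371 against day 8 NC, while day 8 NC and DAMGO differed by 0.242. Its ratio over day 8 NC had an r of 0.554 with GC content. It was thus relatively higher in GC-rich genes, the opposite direction to the day 2 NC library. The undifferentiated and day 4 libraries differed by SDs of 0.227 to 0.254. Values without the day 2 NC or day 8 naloxone library are given beside some of the results whose call or size they change. Markers of astrocytes (6 genes) summed to 1135 to 1192 CPM in undifferentiated libraries and to 13808 to 15046 CPM at day 8. The 8 markers of neural stem and progenitor cells, Vim among them, summed to 7170 to 7467 CPM in undifferentiated libraries, 5662 to 6370 CPM at day 2, 3783 to 3937 CPM at day 4 and 8030 to 8289 CPM at day 8, so these markers were present under the NSC label but their sum does not set the stage apart. The 7 oligodendrocyte lineage markers summed to 2489 to 2664 CPM in undifferentiated libraries, 4398 to 5220 CPM at day 2, 4105 to 4170 CPM at day 4 and 1970 to 2081 CPM at day 8. For the 6 neuron markers the same sums were 1335 to 1369, 793 to 1902, 2027 to 2104 and 465 to 615 CPM. Markers of microglia (5 genes) summed to at most 0.187 CPM, and of 4 endothelium markers Cdh5 and Cldn5 had no count in any library while Kdr was at a mean of 20.6 CPM at day 8, so that the sum of the 4 was 1.93 to 2.77 CPM in undifferentiated libraries and 16.7 to 24.3 CPM at day 8. Finally, the 7 markers of mesenchyme and pericytes summed to 2.22 to 7.19 CPM in undifferentiated libraries and 124 to 150 CPM at day 8. Of these, Pdgfrb rose from a mean of 0.365 to 97.8 CPM and Acta2 from 2.86 to 33.5 CPM. Col1a1, Col1a2, Col3a1, Dcn and Lum had means of at most 0.809 CPM at day 8. The part of these marker changes in the values below was not tested. In these bulk libraries fewer cells of a type and less RNA per cell cannot be told apart.

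Hmga2 had the largest fall of the 4 genes. In undifferentiated NSC its level was 28.0 CPM in the NC, 26.3 CPM in the naloxone and 27.0 CPM in the DAMGO library, and the reference libraries had 26.6 CPM at passage 8 and 25.4 CPM at passage 13. At day 2 the same treatments gave 1.31, 1.27 and 1.98 CPM. At day 4 they gave 0.662, 0.184 and 0 CPM, and at day 8 they gave 0.187, 0.354 and 0 CPM. Every undifferentiated and reference library thus lay far above every differentiating library, and the ranges of day 4 and day 8 overlapped.

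Summed over 3 libraries, 445 Hmga2 counts in undifferentiated NSC faced 30 at day 2, 5 at day 4 and 4 at day 8. The ratio of CPM was 18.3 at day 2 (95% counting interval 12.7 to 27.5), 85.5 at day 4 (36.4 to 265) and 132 at day 8 (51.4 to 488). In edgeR's quasi-likelihood test, Benjamini-Hochberg adjusted over all 13144 genes tested, the log2 change was -4.18 (SE 0.31, adjusted p = 1.12e-06) at day 2 and -6.91 (SE 0.43, adjusted p = 1.49e-07) at day 8. With a trend on GC content and length removed from each library these changes were -3.52 and -5.99, and the day 8 change was -7.97 without the day 8 naloxone library. On TPM plus 1 the changes at day 2 and day 8 were -3.13 and -3.85, and on TPM plus 0.1 they were -4.06 and -6.42. The added 1 is larger than the mean Hmga2 TPM of 0.797 at day 2 and 0.0867 at day 8, which limits the fall on that scale. The change at day 4 was -6.35 (SE 0.42, adjusted p = 4.4e-07), and -7.78 without the day 4 NC library. Between day 2 and day 4 Hmga2 fell further by 2.16 on the log2 scale (SE 0.65, adjusted p = 0.0184). This step rests on 30 and 5 counts. It was -1.92 (adjusted p = 0.0587) without the day 2 DAMGO library, -1.92 (0.0718) without the day 4 naloxone library and -1.71 (0.0527) without the day 4 DAMGO library. Without the day 4 NC library, which held 4 of the 5 counts, it was -3.60 (adjusted p = 0.00849), and on TPM plus 1 it was -0.62 (adjusted p = 0.0122). From day 4 to day 8 the log2 difference was -0.57 (SE 0.97, adjusted p = 0.614), with another sign without the day 4 NC library (0.87) or with the GC and length trend removed (0.22), and the ratio of day 4 to day 8 had an interval of 0.333 to 7.81.

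Hmga1, the more widely expressed HMGA gene, was at 93.8 CPM in the NC, 89.9 CPM in the naloxone and 104 CPM in the DAMGO library of undifferentiated NSC. At day 2 the 3 libraries had 43.2, 51.2 and 57.4 CPM. At day 4 they had 39.7, 38.3 and 35.6 CPM, and at day 8 they had 40.5, 30.7 and 26.3 CPM. All differentiating libraries were below all undifferentiated ones, day 2 was above day 4 in each library, and the day 4 values lay within the range of day 8.

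Against undifferentiated NSC the log2 change of Hmga1 was -0.93 (SE 0.15, adjusted p = 0.000325) for day 2 and -1.34 (SE 0.16, adjusted p = 3.18e-05) for day 4. The size of the day 2 change depended on the setting. It was -0.73 without the day 2 NC library and -1.46 with a trend on GC content and length removed. By day 8 it was -1.57 (SE 0.16, adjusted p = 6.05e-06), or 2.97-fold lower. The difference between day 2 and day 4 was -0.41 (SE 0.16, adjusted p = 0.0511), and it was -0.58 (adjusted p = 0.00193) without the day 2 NC library. It also passed when the filter on low counts was dropped (adjusted p = 0.0428), with limma-voom (0.0435), and without the day 8 NC (0.0251) or day 8 DAMGO library (0.0305). The difference between day 4 and day 8 was -0.23 (SE 0.16, adjusted p = 0.232). Hmga1 has the highest GC content of the list at 62.1%, and with a trend on GC content and length removed from each library its change at day 8 was -2.50, the difference between day 4 and day 8 was -0.96 (adjusted p = 1.26e-05) and that between day 2 and day 4 was -0.08 (adjusted p = 0.564). On deposited TPM plus 1 the difference between day 4 and day 8 was -0.58 (adjusted p = 0.00959), and without the day 8 NC library it was -0.43 (adjusted p = 0.0291).

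Hmga1 shares reads with Hmga1b, a copy at chr11:120762794-120764419, so its count depends on how reads were divided. Between 63% and 87.2% of the 50-base windows of Hmga1 transcripts also occur in Hmga1b. The estimated counts of the genes were whole numbers (within 0.02) in 1 of 14 libraries each, while their sum was whole in all 14. Hmga1b took between 23.5% and 41% of that sum. The sum was 132, 132 and 155 CPM in undifferentiated NSC, 60.8, 73.6 and 78.4 CPM at day 2, 52.0, 55.4 and 49.9 CPM at day 4 and 57.2, 43.5 and 44.6 CPM at day 8. With both genes summed, the log2 change was -0.99 for day 2, -1.41 for day 4 and -1.53 for day 8 (adjusted p = 2.21e-06), and the difference between day 2 and day 4 was -0.42 (adjusted p = 0.0238). Deposited TPM of Hmga1b behaved unlike its counts. It was 206 to 384 in 5 libraries, where the deposited mean transcript length was 209 to 383 bases. In the other 9 the TPM was 18.3 to 70.1, and the length was 1626 bases in each. The length given for Hmga1 itself was 1337 to 1554 bases in all 14 libraries.

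**Figure D2:**
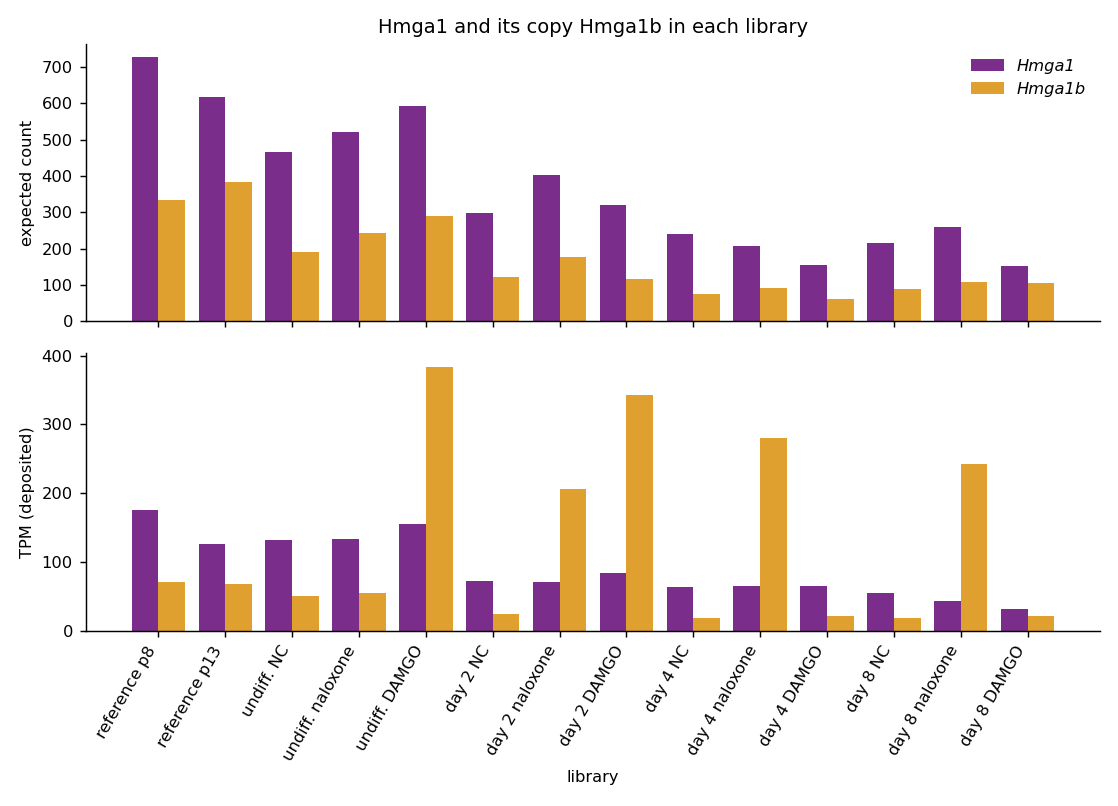
Deposited expected count (top) and TPM (bottom) of Hmga1 and Hmga1b in each of 14 libraries, 1 bar per gene and library. Counts of the copy follow those of Hmga1, while its TPM is 206 to 384 in 5 libraries and at most 70.1 in the others.

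Igf2bp3 kept its level until day 2. The NC, naloxone and DAMGO libraries had 105, 86.6 and 92.6 CPM in undifferentiated NSC and 121, 84.7 and 88.3 CPM at day 2. At day 4 they had 37.7, 34.4 and 37.2 CPM, and at day 8 they had 13.5, 11.9 and 12.3 CPM. The undifferentiated and day 2 ranges overlapped, and from there each stage lay wholly below the one before.

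At day 2 the log2 difference of Igf2bp3 was 0.03 (SE 0.09, adjusted p = 0.785), and -0.03 (adjusted p = 0.823) without the day 2 NC library, which held the highest of all 14 values. With the trend on GC content and length removed it was 0.47 (adjusted p = 0.000114), so that a rise at day 2 depends on that setting. Igf2bp3 then fell by 1.41 on the log2 scale from day 2 to day 4 (SE 0.10, adjusted p = 3.56e-06) and by 1.53 from day 4 to day 8 (SE 0.11, adjusted p = 1.57e-06; 0.92 with the GC and length trend removed). At day 8 it was 7.52-fold lower than in undifferentiated NSC (log2 change -2.91, SE 0.11, adjusted p = 2.84e-09; -2.28 with the GC and length trend removed).

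Igf2bp2, the family member with the widest expression in adult tissues, fell at each step. Its level was 34.7, 36.5 and 37.2 CPM in undifferentiated NSC and 22.0, 18.5 and 15.1 CPM at day 2. It was 10.6, 12.1 and 9.24 CPM at day 4 and 4.31, 4.13 and 3.98 CPM at day 8. No range of a stage overlapped that of another.

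Against undifferentiated NSC the log2 change of Igf2bp2 was -0.98 (SE 0.13, adjusted p = 7.32e-05) for day 2 and -1.77 (SE 0.14, adjusted p = 1.63e-06) for day 4. By day 8 it was -3.13 (SE 0.16, adjusted p = 2.7e-08), or 8.76-fold lower. The step from day 2 to day 4 was -0.79 (SE 0.14, adjusted p = 0.00161) and that from day 4 to day 8 was -1.36 (SE 0.17, adjusted p = 7.66e-05). On TPM plus 1 the step from day 2 to day 4 was -0.37 (adjusted p = 0.138). On that scale the median of all genes tested shifted by 0.20 over the same step and by -0.29 from day 4 to day 8.

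Igf2bp1 and Lin28b stood apart from the tested genes of the list. Igf2bp1 had 3 counts in all, 2 in the undifferentiated naloxone library and 1 in the day 2 DAMGO library, and a highest TPM of 0.08. Lin28b had 2 counts, both in the undifferentiated naloxone library, and a highest TPM of 0.13. Over 14 libraries this equals 0.0351 CPM for Igf2bp1 and 0.0234 CPM for Lin28b, no more than the 0.0351 CPM that 3 counts represent at this depth, so both were left out by the filter on low counts and no change can be given for them. Lin28a, the other Lin28 gene, also had 3 counts in all. Trim71, which marks proteins for degradation and is itself a let-7 target, had 46 counts in 13 libraries and did not pass the filter.

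Per length, the order of the genes was kept from undifferentiated NSC to day 8. In undifferentiated NSC Hmga1 had a TPM of 140 ± 12.8 (SD, n = 3), Igf2bp3 43.5 ± 4.39 (SD, n = 3), Igf2bp2 20.1 ± 0.352 (SD, n = 3) and Hmga2 14.7 ± 0.49 (SD, n = 3). At day 2 Igf2bp3 was at 44.1 ± 11.1 (SD, n = 3) while Hmga2 was at 0.797 ± 0.197 (SD, n = 3). At day 8 the TPM was 43.3 ± 11.5 for Hmga1, 4.98 ± 0.28 for Igf2bp3, 2.10 ± 0.256 for Igf2bp2 and 0.0867 ± 0.085 for Hmga2 (SD, n = 3 each). Neighbours in this order had ranges that did not overlap at any of the 4 stages.

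**Figure D3:**
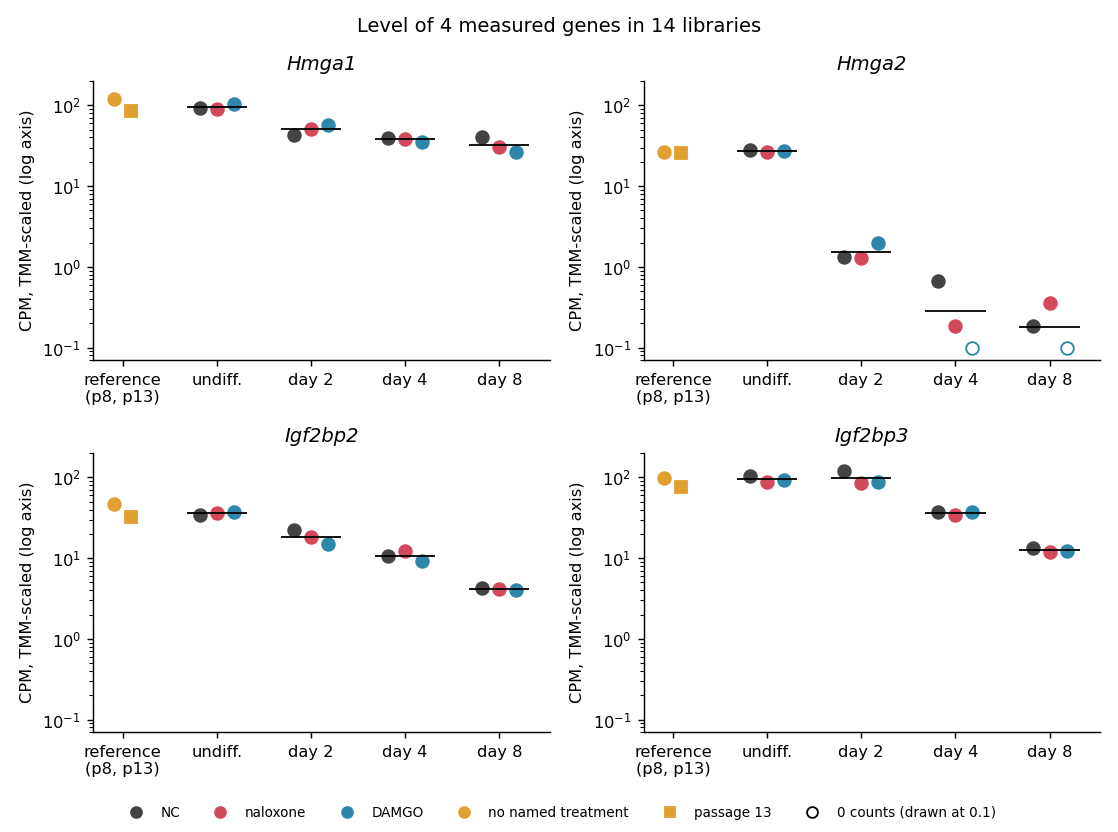
TMM-scaled CPM (log axis) of the 4 measured genes in each of 14 libraries by stage; points are libraries coloured by treatment, squares passage 13, open circles 0 counts drawn at 0.1, and lines the mean of 3 libraries. Hmga2 drops to 1.27 to 1.98 CPM at day 2, whereas Igf2bp3 is still at 84.7 to 121 CPM there.

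Counted over the list, 3 of the 4 tested genes were called lower and 0 higher at day 2, when 35.9% of all genes tested were called lower and 33.7% higher. At day 4 all 4 were called lower, against 31.0% of all genes lower and 31.4% higher. At day 8 all 4 were again lower, against 38.5% lower and 41.6% higher. From day 2 to day 4, 3 of 4 were called lower against 24.8% of all genes, and from day 4 to day 8, 2 of 4 against 31.5%. All these comparisons reuse the same 12 libraries. Hmga2 passed the filter on low counts through its undifferentiated libraries (139 to 154 counts). Its calls against that stage could thus hardly have another direction, and they add little to the counts of genes called lower. The split of calls over all genes depended on the scale: on TPM plus 1, 37.6% of the calls at day 4 were lower instead of 49.7%, from day 2 to day 4 24.8% instead of 47.8%, and from day 4 to day 8 70.6% instead of 45.9%. On that scale the 4 genes were again all called lower at day 4 and day 8, and so were 3 of them at day 2.

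**Figure D4:**
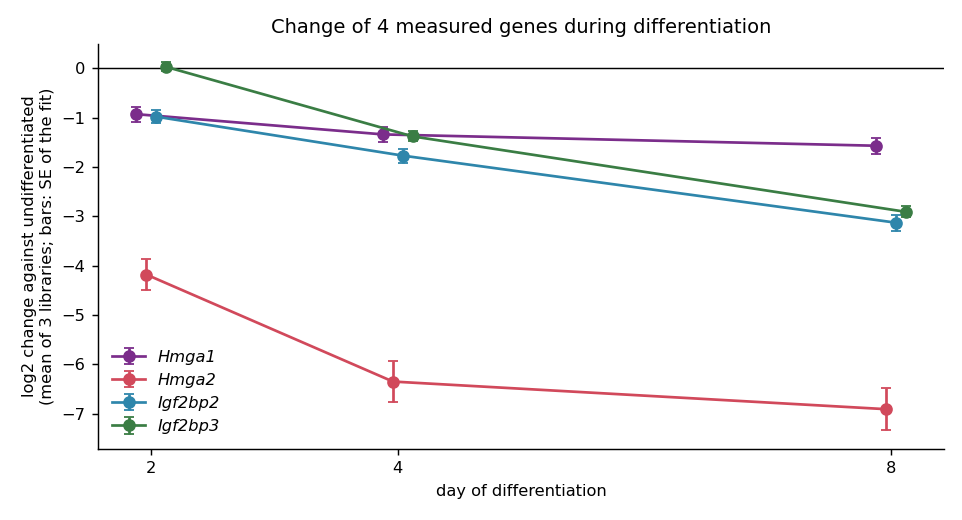
Fitted log2 change against undifferentiated NSC at day 2, 4 and 8 for the 4 measured genes; points are estimates over 3 libraries a stage, bars 1 SE and lines join the same gene. Igf2bp3 starts at 0.03 and Hmga2 at -4.18, and at day 8 the changes range from -6.91 to -1.57.

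Across the 14 libraries, Hmga1 and Hmga2 had a Pearson r of 0.965 in log2 CPM and Igf2bp2 and Igf2bp3 of 0.930, while Hmga2 and Igf2bp3 had 0.727. The genes most like Hmga2 over these 14 libraries were Asf1b (0.992), Cks2 (0.991), Pask, Aurka and Kif20a (0.990 each), of which Aurka and Kif20a act in mitosis and Asf1b deposits histones. Those most like Hmga1 were the replication factor C subunits Rfc5 (0.984) and Rfc3 (0.980), then Eme1, Aurka and U2af1. Igf2bp2 was most like Peg12 (0.990), Adamts10 (0.988), Eif2ak3 (0.986), Nptx1 and Cpd, and Igf2bp3 most like Egfr (0.981), the epidermal growth factor receptor, Cdh20 (0.979), Trib2, Svil and Xylt1. An r of at least 0.95 was reached by 395 of 11201 genes for Hmga2, 186 for Hmga1, 137 for Igf2bp2 and 46 for Igf2bp3. The points share stages and treatments, and these values describe the libraries only.

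S phase and mitosis genes, listed for reference, were called lower in 15 of 15 cases on each of the 3 days, beside 35.9%, 31.0% and 38.5% of all genes. Mki67, a protein of dividing cells, had 1308 ± 42.6 CPM in undifferentiated NSC, 21.9 ± 11.4 CPM at day 2, 9.36 ± 3.68 CPM at day 4 and 1.10 ± 0.346 CPM at day 8 (SD, n = 3 each). It was 1356 CPM in the NC, 1274 in the naloxone and 1296 in the DAMGO library before differentiation and 35.0, 13.8 and 16.9 CPM at day 2. Mki67 thus fell by 5.98 on the log2 scale at day 2 (SE 0.27, adjusted p = 3.4e-08), with -5.38 when the GC and length trend is removed, beside -4.18 for Hmga2, -0.93 for Hmga1 and 0.03 for Igf2bp3. The part of this fall in the values of the 4 genes was not tested.

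Among 18 tested genes that process let-7 or regulate this step, 12 were lower and 4 higher at day 8, where 38.5% of all genes tested were lower and 41.6% higher, and the median log2 change was -0.58 beside 0.05 over all genes. Mbnl1, an RNA-binding protein known as a splicing regulator, went from 97.8 ± 1.63 to 9.07 ± 3.62 CPM (SD, n = 3; log2 change -3.51, SE 0.34, adjusted p = 4.76e-06). Tut4, which adds uridines to let-7 precursors held by LIN28, went from 93.6 ± 2.13 to 11.5 ± 2.97 CPM (SD, n = 3; log2 change -3.06, SE 0.35, adjusted p = 1.78e-05), but at day 4 it was at 78.2 ± 11.1 CPM (adjusted p = 0.5). Syncrip, another RNA-binding protein, fell by 2.60 on the log2 scale at day 8 (SE 0.22, adjusted p = 1.55e-06). Msi1, a stem cell RNA-binding protein, rose by 2.48 (SE 0.08, adjusted p = 1.01e-09), from 36.6 ± 1.54 to 205 ± 19.2 CPM (SD, n = 3). Dis3l2, the exonuclease that degrades uridylated let-7 precursors, fell by 0.47 (SE 0.10, adjusted p = 0.00104). At day 2 the levels of Mbnl1, Tut4 and Syncrip had SDs of 8.98, 20.9 and 63.4 CPM over means of 12.3, 30.9 and 135. With the GC and length trend removed, the day 8 change was -2.63 for Mbnl1, 1.73 for Msi1, -1.49 for Tut4, -1.07 for Syncrip and 0.20 (adjusted p = 0.212) for Dis3l2, and at day 2 the list had 6 lower genes in place of 11.

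Of 41 tested let-7 targets from the literature other than the 6 genes, 23 were lower and 12 higher at day 8 (38.5% and 41.6% of all genes; median -0.53), and 23 lower and 6 higher at day 2 (35.9% and 33.7% of all genes; median -0.40, beside -0.01 over all genes). Ccnd1, cyclin D1, had 2396 ± 29.4 CPM before differentiation, 111 ± 7.42 CPM at day 2 and 37.4 ± 2.0 CPM at day 8 (SD, n = 3; log2 change at day 8 -6.01, SE 0.09, adjusted p = 4.71e-11). E2f2, a cell cycle transcription factor, fell by 5.43 at day 8 (SE 0.26, adjusted p = 2.2e-08). The opposite direction was also seen among the targets. Thbs1, thrombospondin 1, went from 2.60 ± 1.28 to 246 ± 63 CPM (SD, n = 3; log2 change 6.53, SE 0.29, adjusted p = 1.2e-08). Huwe1, whose gene hosts let-7 precursors, fell by 0.87 at day 8 (SE 0.09, adjusted p = 1e-05), and it was the only gene called at day 8 among 3 tested host or precursor transcripts. With the GC and length trend removed its change was -0.09 (adjusted p = 0.346), and of the 3 transcripts 0 were then lower and 2 higher.

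In the IGF axis the largest changes were among the secreted IGF binding proteins, and 7 of 11 tested genes were lower and 2 higher at day 8 (38.5% and 41.6% of all genes; median -1.23). Igfbp5 rose from 74.2 ± 15.9 to 5012 ± 358 CPM (SD, n = 3; log2 change 6.08, SE 0.13, adjusted p = 1.23e-10), while the log2 change was -3.85 for Igfbp2, -3.38 for Igfbp3 and -2.74 for Igfbp4 (-4.76, -4.02 and -3.47 with the GC and length trend removed). Igf1r, the receptor of both IGF ligands and a let-7 target, had 56.3 ± 1.74 CPM before, 37.3 ± 7.15 CPM at day 2, 34.9 ± 1.27 CPM at day 4 and 16.3 ± 2.60 CPM at day 8 (SD, n = 3; log2 change at day 8 -1.80, SE 0.12, adjusted p = 2.48e-07). Igf2, the ligand for which the IGF2BP proteins are named, had at most 2.30 CPM, reached in the passage 8 reference, and was too low to be tested across the stages.

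Of 10 tested transcripts reported as bound by IGF2BP proteins, 3 were lower and 6 higher at day 8 (38.5% and 41.6% of all genes; median 0.51). H19, the noncoding RNA next to Igf2, was at 0.807, 1.38 and 2.10 CPM in undifferentiated NSC and at 42.0, 39.4 and 48.6 CPM at day 8, a log2 change of 4.87 (SE 0.23, adjusted p = 1.99e-08; 4.14 with the GC and length trend removed). Most of this lay between day 4 and day 8 (log2 change 4.05, SE 0.21, adjusted p = 2.18e-07). In that step Igf2bp3 went from 36.5 ± 1.80 to 12.6 ± 0.824 CPM (SD, n = 3). Igf2bp3 also fell from day 2 to day 4 (log2 change -1.41), a step in which H19 differed by -0.32 (SE 0.28, adjusted p = 0.359). A link between the 2 genes was not tested. Myc, a transcription factor of growth, fell by 1.52 (SE 0.07, adjusted p = 2.38e-08) at day 8. With the GC and length trend removed its change was -2.28, and the list then had 4 lower and 4 higher genes.

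Of 9 tested genes linked to HMGA2 in growth control, 8 were lower and 0 higher at day 2, against 35.9% and 33.7% of all genes, but 5 were lower without the day 8 naloxone library. At day 8, 4 were lower and 4 higher, near the 38.5% and 41.6% of all genes. Cdkn2a, the locus of p16 and Arf, which HMGA2 is known to restrain in fetal neural stem cells, had 17.9 ± 1.54 CPM in undifferentiated NSC, 8.88 ± 1.19 CPM at day 2, 6.19 ± 0.465 CPM at day 4 and 24.3 ± 1.34 CPM at day 8 (SD, n = 3 each). It was thus lower at day 2 (log2 change -1.03, SE 0.13, adjusted p = 5.81e-05) and slightly higher at day 8 (0.44, SE 0.12, adjusted p = 0.00619), a direction that turned with the GC and length trend removed (-0.56, adjusted p = 0.000719). Cdkn2b, the neighbouring inhibitor p15, was lower at day 2 (-0.53, SE 0.21, adjusted p = 0.0423, 0.0847 without the day 2 NC library and 0.0528 without the day 8 naloxone library) and rose from 7.17 ± 1.19 to 76.4 ± 5.81 CPM by day 8 (SD, n = 3; log2 change 3.40, SE 0.16, adjusted p = 2.19e-08; 2.55 with the GC and length trend removed). At day 8 the log2 change was 2.68 for Plagl1, a zinc finger protein of growth control (2.09 with that trend removed), and -7.03 for Ccna2, cyclin A2.

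Of 13 other chromatin proteins of the HMG type, 9 were lower and 3 higher at day 8 (38.5% and 41.6% of all genes; median -0.85). Hmgb2 went from 711 ± 24.3 to 103 ± 10.1 CPM at day 2 and 78.3 ± 19.9 CPM at day 8 (SD, n = 3; log2 change at day 8 -3.20, SE 0.17, adjusted p = 4.34e-08). With the GC and length trend removed the day 8 change of Hmgb2 was -1.26. The day 8 change was -1.71 for Hmgb1 and -5.94 for Hmgn5 (-4.52 with that trend removed), and Tox, an HMG box factor, rose by 3.29 (SE 0.39, adjusted p = 2.31e-05; 3.94 with it removed).

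Naloxone and DAMGO were each compared with NC over the 4 stages, and the contrasts share the NC libraries. For both drugs 0 of the 4 genes were called, as were 0% of all 13144 genes. At an unadjusted p under 0.05 edgeR had 1332 genes for naloxone and 314 for DAMGO, and DESeq2 and limma-voom also called 0. Igf2bp3 was lower than in NC at every stage with each drug. Its log2 differences for naloxone were -0.28 in undifferentiated NSC and -0.51, -0.13 and -0.17 on days 2, 4 and 8. The fitted difference was -0.30 (SE 0.08, adjusted p = 0.469). For DAMGO they were -0.18, -0.46, -0.02 and -0.13, with a fitted difference of -0.22 (SE 0.09, adjusted p = 0.951). The NC library of day 2, which stood apart, gave the largest of these, and with the GC and length trend removed the naloxone difference was -0.08 and the DAMGO difference -0.07. Hmga1, Hmga2 and Igf2bp2 were higher than NC in some stages and lower in others, with fitted differences of -0.07 (SE 0.13), -0.13 (SE 0.33) and -0.03 (SE 0.12) for naloxone and -0.04 (SE 0.14), -0.08 (SE 0.34) and -0.19 (SE 0.13) for DAMGO.

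**Figure D5:**
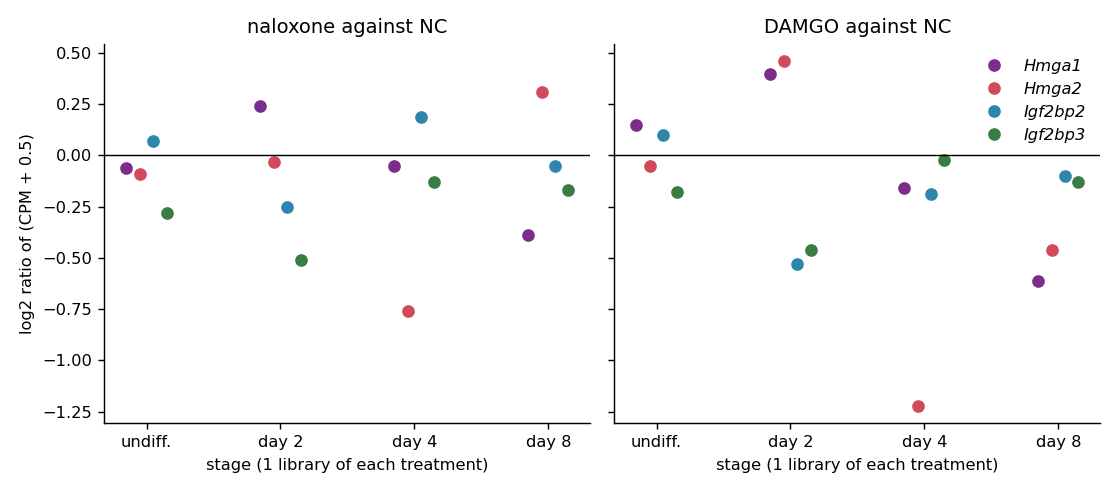
Log2 ratio of CPM plus 0.5 in the naloxone (left) or DAMGO (right) library to the NC library of the same stage for the 4 measured genes; each point is 1 pair of libraries. Igf2bp3 lies below 0 at all 4 stages in both panels, and the widest points, -0.76 and -1.22, belong to Hmga2 at day 4, where it has 0 to 4 counts.

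Whether a drug acted otherwise in differentiating than in undifferentiated cells was tested as an interaction. For naloxone and for DAMGO 0 of the 4 genes were called, beside 0% of all genes, while 226 and 212 genes had an unadjusted p under 0.05 in edgeR's test. Other tools and settings, with no library left out, called 0 to 6 of all genes for naloxone and 0 to 9 for DAMGO. The interaction of Igf2bp3 was -0.02 (SE 0.21) for naloxone and -0.04 (SE 0.22) for DAMGO, both with an adjusted p of 1.

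Passage was compared between single libraries, so the spread was taken from the other libraries. From passage 8 to passage 13 Hmga1 went from 120 to 84.4 CPM, Igf2bp2 from 46.4 to 32.5 CPM, Igf2bp3 from 99.2 to 75.8 CPM and Hmga2 from 26.6 to 25.4 CPM. The log2 differences were -0.50 (SE 0.26), -0.51 (SE 0.20), -0.39 (SE 0.16) and -0.07 (SE 0.35), each with an adjusted p of 1, and 0 of 4 genes were called where 0.0217% of all 13855 genes were. H19 had 31 counts at passage 8 and 4 at passage 13, a log2 difference of -3.18 (SE 0.57, adjusted p = 0.23). Hmga1 summed with Hmga1b went from 175 to 137 CPM.

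The undifferentiated libraries of the drug experiment, also at passage 8, did not differ from the passage 8 reference in these genes past the test. Of the 4 genes 0 were called, against 0.433% of all genes. The log2 differences were -0.36 (SE 0.16, adjusted p = 0.436) for Igf2bp2, -0.32 (SE 0.21, adjusted p = 0.625) for Hmga1, -0.07 (SE 0.13, adjusted p = 0.916) for Igf2bp3 and 0.02 (SE 0.29, adjusted p = 0.998) for Hmga2. Igf2bp2 was lower in all 3 of these libraries than in the reference, and so was Hmga1. For Igf2bp2 and Hmga1 the passage 13 library had less than the passage 8 reference but lay near these libraries, with 32.5 CPM beside 34.7 to 37.2 for Igf2bp2 and 84.4 beside 89.9 to 104 for Hmga1.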

How the data were processed

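Per the labels' protocols, total RNA extracted with Trizol went into TruSeq libraries. Per the submitters' processing notes, reads were handled with Bowtie and RSEM on mm10; their versions, settings and strand are not stated there. Per the file headers, the deposited tables list expected count, TPM and FPKM per gene. The expected counts of the authors were not whole for 10.4 to 13.1% of genes and were rounded, and FPKM was not used. Symbols came from GENCODE vM21 on mm10 for 29202 of 29713 identifiers. The main test was edgeR's quasi-likelihood test on stage plus treatment over 12 libraries (TMM, filter on low counts, 6 residual degrees of freedom, Benjamini-Hochberg adjustment, threshold 0.05). The passage model used 14 libraries with a term for each reference, and the interaction model had 4 residual degrees of freedom. The members and lists were chosen with earlier results of these data known. Named genes were the 6 members, up to 4 called genes per list with the largest change at day 8, 9 genes always given (Lin28a, Igf2, H19, Igf1r, Cdkn2a, Cdkn2b, Trim71, Dis3l2, Mki67), and the 5 genes most correlated with each member; some named genes are not reported here. Counting intervals are exact at 95%. Alternatives were DESeq2 and its size factors, limma-voom, limma on log2 of TPM plus 1 or 0.1, no filter, a GC and length trend removed with mgcv, the passage 8 reference as an NC library, a drug contrast within differentiating libraries, and leaving out libraries one at a time; Hmga1 summed with Hmga1b, the lists under the GC trend and without the day 2 NC or day 8 naloxone library, and the description of 3′ UTR matches over all genes, were chosen after seeing the data. The code was tested on simulated data. Software was edgeR 4.0.16, DESeq2 1.42.0, mgcv 1.9.3 and limma 3.58.1 in R 4.3.3.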

Additional observations from a re-analysis of the deposited data

How the results depend on the processing

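Under every alternative that could be fitted, the number of the 4 genes called in a comparison stayed within 1.5 times the main one. Of 894 values for these genes under alternatives, 331 kept a call and its direction, 5 lost it, 11 gained it and none of the called ones changed sign; 547 were not called in either fit, 43 of them with another sign. The lost calls are Igf2bp2 from day 2 to day 4 on TPM plus 1 (-0.37) or 0.1 (-0.40), and Hmga2 over the same step in the 3 fits given above. The gained calls are those of Hmga1 between neighbouring stages and of Igf2bp3 at day 2 given above, with -0.59 for Hmga1 from day 4 to day 8 on TPM plus 0.1; the causes were not tested. With each library left out in turn, the day 8 change ranged from -7.97 to -6.42 for Hmga2, -1.77 to -1.40 for Hmga1, -3.22 to -3.01 for Igf2bp2 and -2.94 to -2.87 for Igf2bp3. Over all genes, counts of calls are given for the alternatives that left out no library. Between the passages 3 genes were called, and 0 to 22 under these alternatives. Between the undifferentiated libraries and the passage 8 reference 60 were called, and 57 to 183 under them. The drug interactions had 0 genes called and 0 to 9 under the alternatives that left out no library. Leaving out a reference library removes its comparison, and the interaction of a drug could not be fitted without its undifferentiated library. No fit with a replicate number as a block was made because the labels carry none; the main model already adjusts stages for treatment and drugs for stage. Depth limits Igf2bp1, Lin28b and, after day 2, Hmga2.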

Other observations

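Over all genes, those with let-7 seed matches in the longest annotated 3′ UTR are described here without a test, since longer 3′ UTRs hold more matches. Of 12324 tested genes with a 3′ UTR, 38.2% were lower and 42.7% higher at day 8, with a median log2 change of 0.07. Of 1329 with at least 1 match of 7 bases, 41.2% were lower and 39.2% higher (median -0.06). Of 152 with at least 2 matches, 50.7% were lower and 30.3% higher (median -0.31), and their median 3′ UTR had 3641 bases against 961 for all. At day 2 the 152 genes were lower in 38.2% and higher in 27% of cases, beside 35.8% and 34.6% of all. At day 4 they were lower in 31.6%, as were all genes, and higher in 22.4% beside 31.8%, while the 1329 genes with at least 1 match were lower in 29.2% and higher in 31.9% (median 0.05).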
